A study of Tachysurus vachellii and Tachysurus fulvidraco x Tachysurus vachelli and Tachysurus fulvidraco with 9 samples.

Results

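In the liver of the hybrid catfish Huangyou-1, 154 assembled genes that carry a protein description lay above both parental species in every library. They were chosen from the measured values. A row of the table was taken where it had a description that did not name Homo sapiens and a hybrid mean of at least 5 TPM. The lowest hybrid library had to lie above the highest parental library, and the hybrid mean had to be at least 1.5 times the larger parental mean. TPM is a level scaled for transcript length and for the size of the library. Of 57710 rows, 23144 had such a description and 7469 of these reached 5 TPM in hybrids, so the members were 2.06% of the rows that could be chosen. The differences between hybrid and parents in the members therefore describe the choice and carry no test.

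Transcript levels were measured by sequencing poly(A) RNA from juvenile liver in 9 libraries, 3 of Pelteobagrus vachelli, 3 of P. fulvidraco and 3 of the hybrid, whose mothers were P. fulvidraco and whose fathers were P. vachelli. The parents had been induced to spawn with hormone, the eggs were fertilized by hand, and each line was raised in its own aquaria, first on brine shrimp larvae and then on compound feed. Line and rearing therefore cannot be told apart. Whether a library held 1 fish or a pool is not in the labels, so the spread between libraries and the p-values made from it may be technical. Values after ± are SDs over n = 3 libraries unless a standard error is named, and libraries are listed in the order 1, 2 and 3 of each group.

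A hybrid carries 1 genome copy from each parental species, and for most genes its transcript level is known to lie between the parental levels or at one of them. A level above both parents, called transgressive or overdominant expression, is the less common pattern and is of interest in breeding because hybrids may outgrow their parents. The liver makes most plasma proteins and bile, and it stores, builds and breaks down sugars, fats and amino acids. In many fishes exocrine pancreas lies scattered in or around the liver, so liver samples can hold pancreatic transcripts.

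The TPM of 11 of the 12 listed hepatocyte markers were measured and summed to 34072 to 37693 in P. vachelli, 36409 to 38623 in the hybrid and 37713 to 41822 in P. fulvidraco. P. fulvidraco libraries 1 and 2 stood apart by vitellogenin, the egg yolk precursor that an estrogen-exposed liver makes, at 5.08% and 1.88% of all TPM against 0.0055% in library 3. Without those libraries, which left library 3 alone for P. fulvidraco, 134 of the 154 members met the rule. Each library had 36107 to 41016 rows at 1 TPM or more, and read depth cannot be recovered from TPM.

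Few rows were above both other groups in the hybrid, while many were so in a single parent. The same conditions with P. vachelli on top chose 1484 of 7458 rows (19.9%), and with P. fulvidraco on top 1192 of 7482 rows (15.9%). The mirrored rule, with the hybrid below both parents, chose 111 of 5734 rows (1.94%). Members ranged from 5.02 to 23062 TPM in the mean of the hybrid libraries, with a median of 13.03 TPM. There were 30 rows at 100 TPM or more, 64 between 10 and 100 and 60 under 10. The ratio of hybrid mean to larger parental mean had a median of 2.16. It was at least 2 in 94 rows, at least 3 in 50 and at least 5 in 22. Together the members held 4.20% to 4.66% of all TPM in hybrid libraries and 1.12% to 2.64% in the parental ones. Without hpx and fabp1, the most abundant members, these shares were 0.936% to 1.01% and 0.297% to 0.487%.

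**Figure D1:**
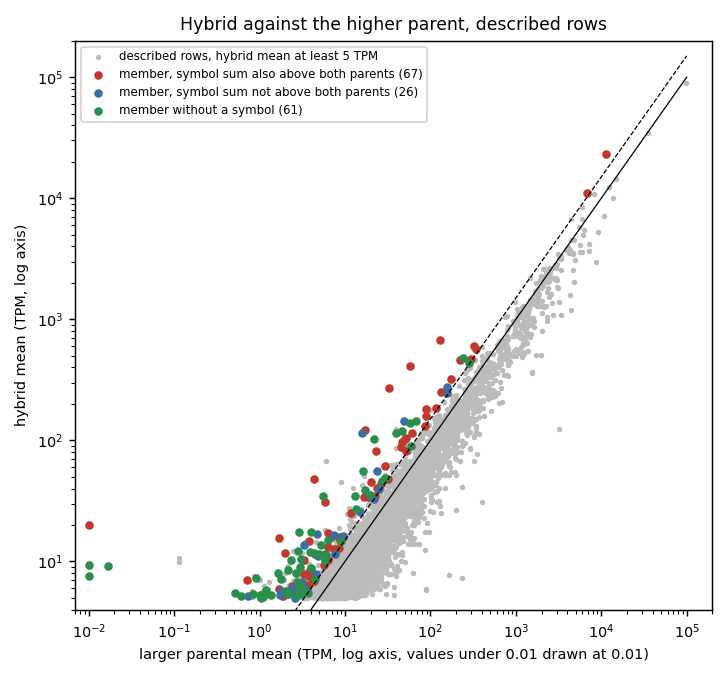
Hybrid mean against the larger of the parental means (TPM, both axes logarithmic) for the 7469 described rows with at least 5 TPM in hybrids. Members are coloured by whether their gene symbol also met the rule once its rows were summed, the solid line marks equality and the dashed line a ratio of 1.5. Members lie above the dashed line from 5.02 to 23062 TPM, and grey points above it are rows whose libraries overlapped.

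In an assembled transcriptome, the forms of a gene from either species or its isoforms can end up in separate rows, so each symbol was checked after summing all of its rows. Of the members, 93 had a symbol, 88 different ones, and 61 had none. After summing, 62 of the 88 symbols still met the rule: 25 of the 51 with several rows and all 37 with a single row. For those 37 the sum is the row itself, so only the 51 could fail. Over all symbols, 83 of 5888 (1.41%) met the rule when summed, against 14.4% with P. vachelli and 11.3% with P. fulvidraco on top. The median ratio of the 62 was 1.93. It was at least 2 in 27 of them, at least 5 in 7 and at least 10 in 2. Of these symbols, 37 also met the rule under quantile normalization, under median-ratio scaling, without any one library and without P. fulvidraco 1 and 2. Leaving out libraries cannot make separated groups overlap, so in those settings only the level or the ratio could fail. Values given below under a symbol are sums over its rows, and those given for a row are of that row alone.

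Among plasma proteins, hpx was the most abundant member. Its member row is described as a warm temperature acclimation protein of 65 kDa, the fish relative of hemopexin, which binds free heme in plasma. The row stood at 21868, 25697 and 21623 TPM in hybrids, 2137, 3046 and 1717 in P. vachelli and 9004, 11017 and 14455 in P. fulvidraco, 2.01 times the P. fulvidraco mean. All hybrid libraries were above all others, and P. vachelli was the lowest group. A second row of the symbol, described as protein 2 of this family, had the opposite order, with a mean of 2338 ± 353 TPM in P. vachelli and 963 ± 163 TPM in hybrids. Summed, hpx reached 24026 ± 2229 TPM in hybrids against 12628 ± 2699 in P. fulvidraco, a ratio of 1.9 that fell to 1.38 under quantile normalization. A2m and C4 each had a member row, at 55.4 and 33 TPM, whose symbols did not keep the rule.

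hpx was 1 of 12 measured genes of a list for iron and heme. In the counts of list genes here and below, member symbols and symbols that kept the rule are left out, since the rule fixed their direction. By limma on log2(TPM + 1) of summed symbols, adjusted over all 10815 symbols tested, 5 of the other 11 were higher in the hybrid than in P. vachelli and 0 lower, where 13.7% of all symbols were higher and 16.9% lower. Against P. fulvidraco 2 were higher and 2 lower, where 10.6% of all were higher and 14.1% lower. These hybrid comparisons share the hybrid libraries. Transferrin, the iron carrier of plasma, was higher than in both parents at 10849.9 ± 1251 TPM against 5515 ± 559 in P. vachelli and 8144 ± 343 in P. fulvidraco, without reaching the ratio of 1.5 to P. fulvidraco.

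Lipid metabolism held 10 member rows. The highest was fabp1, the fatty acid-binding protein of liver cytosol, with 10460.0, 11498 and 11460.0 TPM in hybrids, 7127, 6688 and 6479 in P. vachelli and 3876, 5431 and 7032 in P. fulvidraco. Its ratio was 1.65, and 1.46 under quantile normalization. The hybrid libraries did not overlap with either parent, and the P. fulvidraco libraries spread most. Elovl2, which lengthens polyunsaturated fatty acids, stood at 153, 166 and 161 TPM in hybrids, 84.4, 86.2 and 96.01 in P. vachelli and 135, 64.9 and 58.4 in P. fulvidraco. P. fulvidraco 1 reached close to the hybrid range, and the other parental libraries were well below it. ACSS2, which turns acetate into acetyl-CoA in the cytosol, gave 127, 128 and 149 TPM in hybrids, 74.6, 80.7 and 85.7 in P. vachelli and 95.1, 66.7 and 76.98 in P. fulvidraco, from 2 member rows that were both above the parents. Its hybrid libraries were close together and 1.68 times the higher parent in the mean.

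Lipoproteins gave 2 rows. apoeb, a fish form of apolipoprotein E, was at 110.1, 122 and 161 TPM in hybrids against 81.6, 101 and 76.6 in P. vachelli and 53.6, 86.1 and 96.8 in P. fulvidraco. Its ratio of 1.52 fell to between 1.35 and 1.48 without P. vachelli 1, P. vachelli 3, hybrid 3 or P. fulvidraco 1. A row described as apolipoprotein A-Ib, the main protein of high-density lipoprotein, had 111, 78.9 and 167 TPM in hybrids, 27.1, 63.03 and 38.2 in P. vachelli and 53.5, 38.6 and 48.8 in P. fulvidraco, so that hybrid 2 was the lowest of its group and still above every parental library. The other rows were a carboxylesterase, a prosaposin-like protein, a second fatty acyl elongase and Ffar3, a receptor row described as one for short-chain fatty acids, at 9.32 to 46.4 TPM.

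Of 18 measured genes of a list for fatty acid synthesis and storage, Elovl2 and fabp1 kept the rule. Of the other 16, by limma, 2 were higher and 2 lower than in P. vachelli, beside 13.7% and 16.9% of all symbols. Against P. fulvidraco 4 were higher and 0 lower, beside 10.6% and 14.1% of all symbols. The median log2 differences over these 16 were -0.06 and 0.02, beside -0.05 and -0.05 over all symbols. FASN, the fatty acid synthase, averaged 10.6 ± 2.56 TPM in hybrids against 7.66 ± 0.824 and 5.19 ± 2.05 in P. vachelli and P. fulvidraco, and elovl5 averaged 369 ± 72.4 TPM against 368 ± 18.1 and 97.3 ± 8.19 TPM.

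Sugar and energy metabolism held further members. SORD, sorbitol dehydrogenase of the polyol pathway, was at 165, 210.3 and 183 TPM in hybrids against 111, 90.7 and 96.6 in P. vachelli and 106, 113 and 126 in P. fulvidraco, 1.62 times the higher parent and 1.47 times without P. fulvidraco 1 and 2. GALK1, which phosphorylates galactose, reached 15.8 ± 3.45 TPM, 1.85 times the P. fulvidraco mean. A row of mitochondrial adenylate kinase 4 stood at 90.2 ± 13.5 TPM and 1.54 times the higher parent, or 1.41 times without hybrid 2.

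Of 21 genes of glycolysis and gluconeogenesis that were not members, by limma 1 was higher and 2 lower than in P. vachelli, and 1 higher and 4 lower than in P. fulvidraco, beside the same shares of all symbols. Their medians were -0.05 and -0.06 on the log2 scale, near those of all symbols. Pck1, which starts gluconeogenesis, averaged 148 ± 19.3 TPM in hybrids against 214 ± 69.4 and 269.9 ± 62.7 TPM, and G6PC, which releases free glucose, 1878 ± 311 TPM against 1925 ± 33.8 and 1806 ± 496 in P. vachelli and P. fulvidraco.

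Among the amino acid genes, the pair Csad and GADL1 stood out by ratio. Both rows are described as cysteine sulfinic acid decarboxylase, the enzyme that makes hypotaurine on the way to taurine, and both came from the same assembly component, so they may share reads. Csad was at 277, 507 and 476 TPM in hybrids, 62.8, 44.4 and 67.9 in P. vachelli and 35.4, 59.4 and 34.8 in P. fulvidraco. GADL1 was at 92.8, 131 and 144 TPM in hybrids, 20.4, 11.3 and 17.2 in P. vachelli and 16.2, 22 and 12.9 in P. fulvidraco. The ratios were 7.2 and 7.21, hybrid 1 was the lowest hybrid library in both, and the groups were far from overlapping.

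IDO2, which opens the tryptophan ring, had a graded order with 40.2, 48.8 and 34.7 TPM in hybrids, 4.56, 7.29 and 8.85 in P. vachelli and 25.3, 21.3 and 24.7 in P. fulvidraco. The parents themselves were apart, with P. fulvidraco higher by 1.68 ± 0.21 (standard error) on the log2 scale of summed symbols and an adjusted p of 1.87e-04 by limma. SDSL, a serine dehydratase-like enzyme, was at 13.3 ± 1.49 TPM and 2.1 times the P. fulvidraco mean. Of 32 measured genes of a list for amino acid breakdown, Csad alone kept the rule, but IDO2 and SDSL were not on that list. Of the other 31, by limma, 11 were higher and 5 lower than in P. vachelli, beside 13.7% and 16.9% of all symbols. Against P. fulvidraco 8 were higher and 9 lower, beside 10.6% and 14.1%. The medians over these 31 were 0.17 and -0.02 on the log2 scale.

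Transport and detoxification held 10 rows. slc51a is the alpha subunit of the organic solute transporter, which carries bile acids across the basolateral membrane. Both of its member rows were above the parents, and their sum was 295, 303 and 284 TPM in hybrids, 161, 143 and 144 in P. vachelli and 91.1, 123 and 156 in P. fulvidraco. The hybrid libraries lay within a narrow band and the ratio was 1.97. ABCC1, an efflux pump for conjugated compounds, was at 354, 259 and 359 TPM in hybrids, 129, 149 and 143 in P. vachelli and 169.8, 199.6 and 193 in P. fulvidraco, with P. fulvidraco higher than P. vachelli by 0.42 ± 0.13 (standard error; adjusted p = 0.0293, limma).

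Sult1d1, a sulfotransferase that conjugates small phenols, was nearly missing from 1 parent. Its values were 42.1, 89.3 and 52.7 TPM in hybrids, 0.91, 3.43 and 0 in P. vachelli and 31.6, 28.9 and 26.97 in P. fulvidraco. The hybrid, with 1 parent near 0, was still 2.1 times the other parent. marc1, a molybdenum enzyme of the outer mitochondrial membrane, averaged 88.03 ± 20.5 TPM and was 1.95 times the higher parent. The remaining rows were dhdh, SCLY, a selenoprotein M-like row, Fmo5 and hmox. SCLY frees selenium from selenocysteine, and selenoprotein M is a selenium-containing protein of the endoplasmic reticulum. Fmo5 fell just short after summing, at a ratio of 1.48, and hmox, heme oxygenase, went from 4.1, or 2.45 without hybrid 2, to 0.491 once another row, high in P. vachelli, was added. None of 13 measured genes of a list for bile acid synthesis and transport kept the rule, but slc51a was not on that list. Of the 13, by limma, 4 were higher and 3 lower than in P. vachelli, beside 13.7% and 16.9% of all symbols. Against P. fulvidraco 2 were higher and 4 lower, beside 10.6% and 14.1%.

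**Figure D2:**
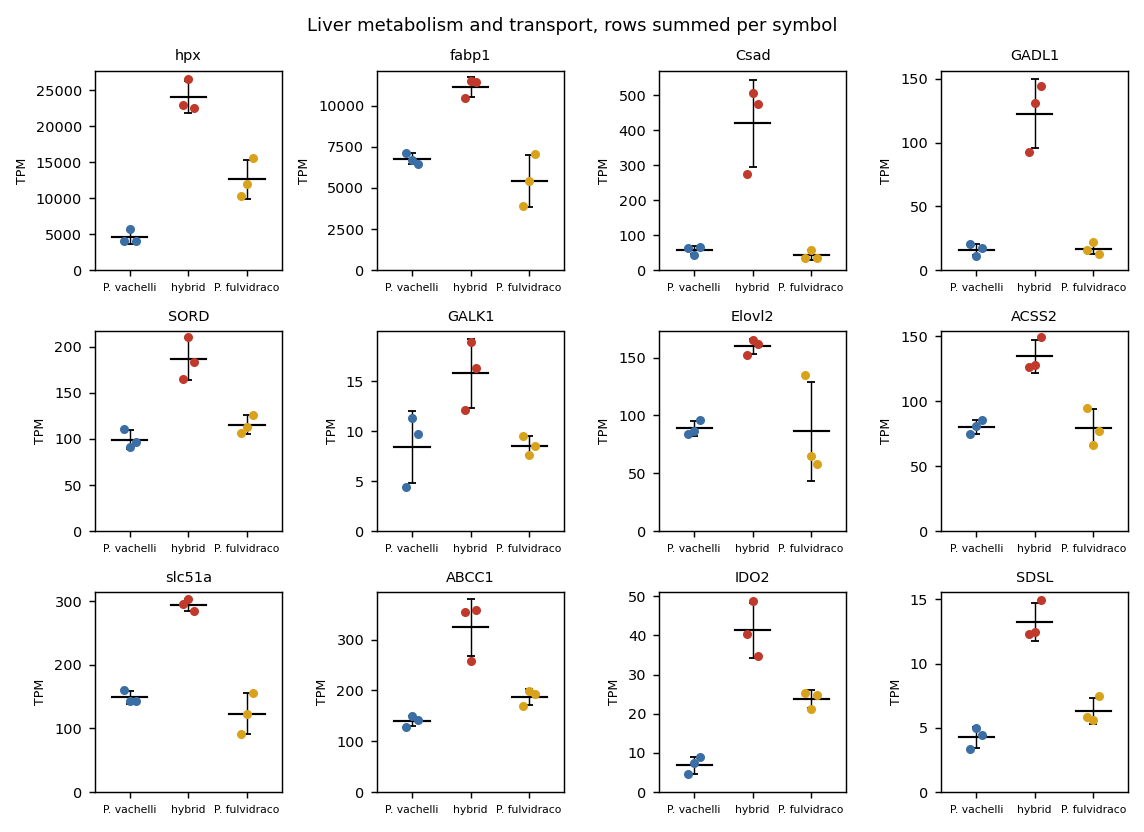
Levels of 12 member symbols of metabolism and transport after summing their rows (TPM, linear axes from 0), with 1 point per library, the group mean as a line and the SD as a bar (n = 3). The hybrid points lie above all parental points in every panel. The hybrid points of Csad are widely spread, and hpx, ABCC1, IDO2 and SDSL show P. fulvidraco above P. vachelli.

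Pancreatic secretory proteins made up 8 member rows, and the astacin-family hatching enzymes 3. By the description classes, digestive enzymes had 6 members among 44 described rows at 5 TPM, or 13.6%, beside 2.06% over all. The classes were chosen with earlier results of these data known, so this share carries no test. CPB1, carboxypeptidase B, was at 718, 542 and 535 TPM in hybrids, 327, 190.2 and 199 in P. vachelli and 175, 335 and 463 in P. fulvidraco. Cpa1, carboxypeptidase A1, was at 658, 540.3 and 502 TPM in hybrids, 379, 169 and 201 in P. vachelli and 174, 416 and 446 in P. fulvidraco. P. fulvidraco 1 was well below the other libraries of its group in both, while P. vachelli 1 was well above its own. Syncollin, a protein of zymogen granules, had the same order at 607, 405 and 401 TPM in hybrids, 299.9, 157 and 181 in P. vachelli and 161, 381 and 353 in P. fulvidraco, and hybrid 1 was the highest of its group.

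A row of trypsin precursor stood out more, with 149, 108 and 86.9 TPM in hybrids, 28.4, 17.5 and 16.1 in P. vachelli and 26.7, 39.5 and 50.9 in P. fulvidraco and a ratio of 2.93. Pnliprp1, a pancreatic lipase-related protein, averaged 103 ± 25.05 TPM and was 2.04 times the P. vachelli mean. Pdia2, the pancreatic protein disulfide isomerase, averaged 10.3 ± 2.09 TPM and was 3.11 times the P. fulvidraco mean. The last were an amylase row at a ratio of 1.54 and an elastase row, CELA2A, whose symbol summed to a ratio of 1.2 with overlapping libraries. The hatching enzymes hcea and lce, known for dissolving the egg envelope, were at 601, 502 and 427 TPM and 371, 317 and 284 TPM in hybrids. In P. vachelli they were at 270.0, 136 and 153 TPM and 112, 69.96 and 51.1 TPM, and in P. fulvidraco at 136, 236 and 361 TPM and 94.2, 214 and 225 TPM.

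All 8 pancreatic and all 3 hatching enzyme rows had P. vachelli 1 as the highest library of its species and P. fulvidraco 1 as the lowest of its own. That order held in 37 of the 154 members (24.0%) and in 1324 of the 7469 described rows (17.7%). Several of these ratios rested on P. fulvidraco 1. Without it, CPB1 was at 1.499 times the higher parent, Cpa1 at 1.31, Sycn at 1.28, lce at 1.48 and the amylase row at 1.29, each under the threshold, whereas hcea stayed at 1.71, Pnliprp1 at 2.04, Pdia2 at 2.90 and the trypsin row at 2.53. Sycn was also at 1.35 without hybrid 1, and hcea at 1.41 without P. fulvidraco 1 and 2.

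The whole marker list of pancreatic acinar cells was read beside these rows. Of 14 markers, 9 were measured, and 2 of them, CPB1 and Cpa1, kept the rule. The summed list ranged from 2036 to 3696 in P. vachelli, from 6089 to 8125 TPM in hybrids and from 2516 to 6414 in P. fulvidraco, so the hybrid and P. fulvidraco overlapped. CELA2A was also a member row, so 3 of the 9 were chosen by the rule. Of the other 6, by limma, 3 were higher and 1 lower than in P. vachelli, beside 13.7% and 16.9% of all symbols. Against P. fulvidraco 2 were higher and 0 lower, beside 10.6% and 14.1%. The medians over these 6 were 1.29 and 0.89 on the log2 scale. Insulin, the single measured endocrine marker of 5, averaged 63.1 ± 72.3 TPM in hybrids, 3.94 ± 1.90 in P. vachelli and 35.4 ± 28.3 in P. fulvidraco. Prss2, a trypsinogen, stood at 0 in the 3 P. fulvidraco libraries and averaged 519 ± 67.7 TPM in P. vachelli and 299 ± 86.2 TPM in hybrids. In bulk tissue, more or fewer cells of a type and more or less RNA per cell cannot be told apart, and the part of pancreatic tissue in these rows was not tested.

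**Figure D3:**
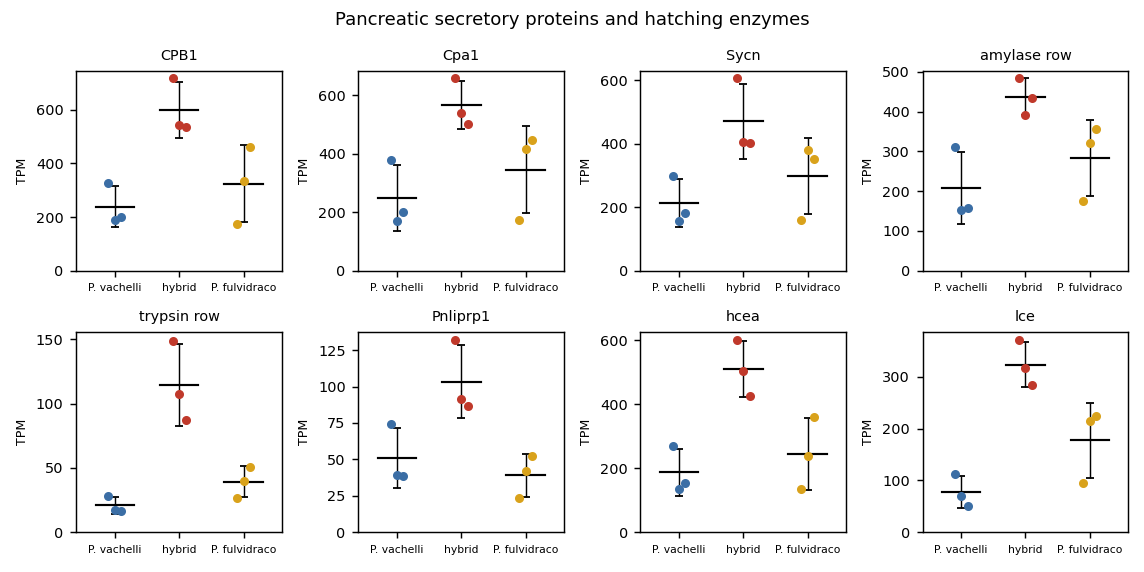
Pancreatic secretory proteins and hatching enzymes (TPM, linear axes from 0), with 1 point per library in the order 1, 2 and 3 from left to right, the group mean as a line and the SD as a bar (n = 3). In all 8 panels the left point is the highest in P. vachelli and the lowest in P. fulvidraco, and every hybrid point lies above every parental point.

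The immune members were 4 rows of MHC and antigen presentation, 5 of chemokines, 3 of lectins, 10 of immunoglobulin superfamily and lymphocyte proteins and 9 of other innate immunity. The class I rows were led in ratio by H2-Q7, described as an MHC class I alpha chain of P. fulvidraco, which presents peptides to T cells. It was at 38.9, 20.3 and 85.99 TPM in hybrids, 1.21, 1.87 and 4.10 in P. vachelli and 1.69, 2.53 and 8.85 in P. fulvidraco, a ratio of 11.1. That ratio was 6.79 without hybrid 3, 20.2 without P. fulvidraco 3 and 5.47 without P. fulvidraco 1 and 2. H2-Q8, with the same description, was at 37.5, 32.9 and 22.4 TPM in hybrids, 3.59, 4.43 and 5.13 in P. vachelli and 4.51, 3.97 and 8.85 in P. fulvidraco, a ratio of 5.36, which was 3.50 without P. fulvidraco 1 and 2. The hybrid libraries varied by up to 4.24 times between them for H2-Q7, with hybrid 3 the highest there and the lowest for H2-Q8. A further alpha chain row without a symbol was at 123, 137 and 160.2 TPM in hybrids, 40.9, 43.5 and 34.6 in P. vachelli and 83.3, 44 and 45.7 in P. fulvidraco.

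These genes are highly polymorphic and close relatives of each other, and how the quantification split reads among them is unknown. A row described as MHC class IIA carries the symbol b2m in the table. It was at 99.9, 113 and 222 TPM in hybrids, 14.1, 20.6 and 20.6 in P. vachelli and 51.6, 32.3 and 63.2 in P. fulvidraco. Summed with the other b2m rows the ratio was 1.35 and the libraries overlapped. Of 10 measured genes of a list for antigen presentation, b2m among them, none kept the rule, but H2-Q7 and H2-Q8 were not on that list. Of the 9 besides b2m, by limma, 1 was higher and 2 lower than in P. vachelli, beside 13.7% and 16.9% of all symbols. None was called against P. fulvidraco, where 10.6% of all symbols were higher and 14.1% lower.

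Chemokines draw leukocytes into tissue. Ccl24 was at 53.5, 77.8 and 116 TPM in hybrids, 9.50, 19.8 and 11.8 in P. vachelli and 14.3, 29.4 and 25.7 in P. fulvidraco, with no overlap and a ratio of 3.56. Its row and the CCL3 member row are described as 2 isoforms of the same uncharacterized catfish protein. Their own descriptions thus do not name a chemokine, and the rows may share reads. The symbol CCL4 joined 2 member rows that were each close to 0 in a different parent. The row described as SCYA124 was at 7.50, 9.73 and 8.45 TPM in hybrids, 3.69, 2.76 and 5.22 in P. vachelli and 0.51, 0 and 0 in P. fulvidraco. The other was at 5.94, 7.19 and 5.75 TPM in hybrids, 0 in all P. vachelli libraries and 2.02, 0.79 and 4.44 in P. fulvidraco. The hybrid thus had both rows, each above the parent that had it, and their sum was 3.82 times the higher parent. cxcl11.6, a CXC chemokine, averaged 16.1 ± 1.29 TPM and was 2.5 times the P. vachelli mean. The CCL3 row, at 121, 64.3 and 157 TPM in hybrids, was 7.27 times the higher parent alone and 0.692 times once the other CCL3 rows, high in P. fulvidraco, were added.

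The lectins included the member row with the highest level among immune genes. The intelectin 1 row, of a family that binds microbial sugars, was at 504, 536 and 988 TPM in hybrids, 4.47, 5.38 and 8.05 in P. vachelli and 112, 125 and 149 in P. fulvidraco. The ratio was 5.26, and the P. vachelli libraries were near 0. An intelectin-2 row ran the other way, with a mean of 530.4 ± 99.8 TPM in P. vachelli, 227 ± 42.2 TPM in hybrids and 325 ± 146 in P. fulvidraco. Summed as itln, the ratio was 1.68, and 1.35 without hybrid 3. Both rhamnose-binding lectin rows, from the same assembly component, were at or near 0 in every parental library and at 6.43, 19.2 and 2.26 TPM and 5.02, 19.7 and 2.58 TPM in hybrids. Their level was mostly that of hybrid 2, and without that library they fell under 5 TPM.

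Of the immunoglobulin superfamily, a row of an immunoglobulin light chain of the L2 isotype was at 15, 17.98 and 19.8 TPM in hybrids, 2.91, 5.68 and 3.57 in P. vachelli and 1.46, 1.34 and 1.70 in P. fulvidraco. Light chains pair with heavy chains in antibodies of B cells. A heavy chain-like row, described as Mem5, stood at 5.87, 8.01 and 7.77 TPM in hybrids, 2.67, 1.28 and 1.44 in P. vachelli and 1.91, 1.36 and 1.44 in P. fulvidraco. A row like CD37, a tetraspanin of leukocytes, was at 7.32, 8.34 and 9.97 TPM in hybrids and under 3 TPM in all parental libraries. The other rows in this group were 2 like signal-regulatory protein beta-1, SIGLEC1, Sh2d1a, IGKV1-39, an immunoglobulin superfamily member 1-like row and a C segment transcript, at 5.64 to 49.1 TPM.

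Markers of immune cells were sparse. None of 5 listed B cell markers and 2 of 7 T cell markers were measured. LCK, a kinase of T cells, averaged 6.53 ± 1.19 TPM in hybrids against 2.55 ± 0.757 in P. vachelli and 3.02 ± 1.99 in P. fulvidraco, and was higher than in both parents by limma, with log2 differences of 1.09 (adjusted p = 0.0287) and 1.0 (adjusted p = 0.0467). Zap70, the other one, averaged 2.10 ± 1.83, 4.63 ± 1.07 and 6.14 ± 2.91 TPM in the same order. The 5 macrophage markers measured of 6 summed to 48.9 to 64.5 TPM in hybrids, 33.0 to 37.4 in P. vachelli and 36.6 to 55.6 in P. fulvidraco. By limma 2 of them were higher and 0 lower than in P. vachelli, beside 13.7% and 16.9% of all symbols. Against P. fulvidraco 0 were called, where 10.6% of all symbols were higher and 14.1% lower. Of 5 neutrophil markers 1 was measured. It stood at 18.7 to 27.2 TPM in hybrids, 45.5 to 50.1 in P. vachelli and 3.83 to 5.11 in P. fulvidraco. The hybrid level lay between those of the parents, and by limma both differences were called. On the log2 scale they were -1.07 against P. vachelli and 2.08 against P. fulvidraco. Of 4 thrombocyte markers 3 were measured, and 0 were called against either parent. The part of immune cell number in the immune rows was not tested.

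The 9 other innate rows were IFI44, another row like it, CASP6, PARP12, Gimap4, an IMAP GTPase row, EXOC3L1, NOD1 and a row of the NLR family, at 5.02 to 25.6 TPM. Of these rows 6 had a symbol, none of which kept the rule, and 3 had none. Summed by assembly component, 4 of the 9 met the rule. For 3 of the rows with a symbol, symbol and description differ. The Gimap4 row is described as a putative PHLOEM PROTEIN 2-LIKE A3. The EXOC3L1 row is described as tumor necrosis factor alpha-induced protein 2-like and the NOD1 row as NLR family member X1-like. IFI44, an interferon-induced gene, shows how a row and its symbol can part. The member row was 1.7 times the higher parent and 1.44 times without hybrid 1, but the symbol summed to 269.5 ± 67.02 TPM in P. vachelli, 45.3 ± 8.96 TPM in hybrids and 24.1 ± 3.65 in P. fulvidraco. In a list of 19 measured interferon response genes, mx, an antiviral GTPase, was the single one to keep the rule, and this after summing. Of the 17 besides mx and IFI44, by limma, 0 were higher and 7 lower than in P. vachelli, beside 13.7% and 16.9% of all symbols. Against P. fulvidraco 3 were higher and 2 lower, beside 10.6% and 14.1%.

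**Figure D4:**
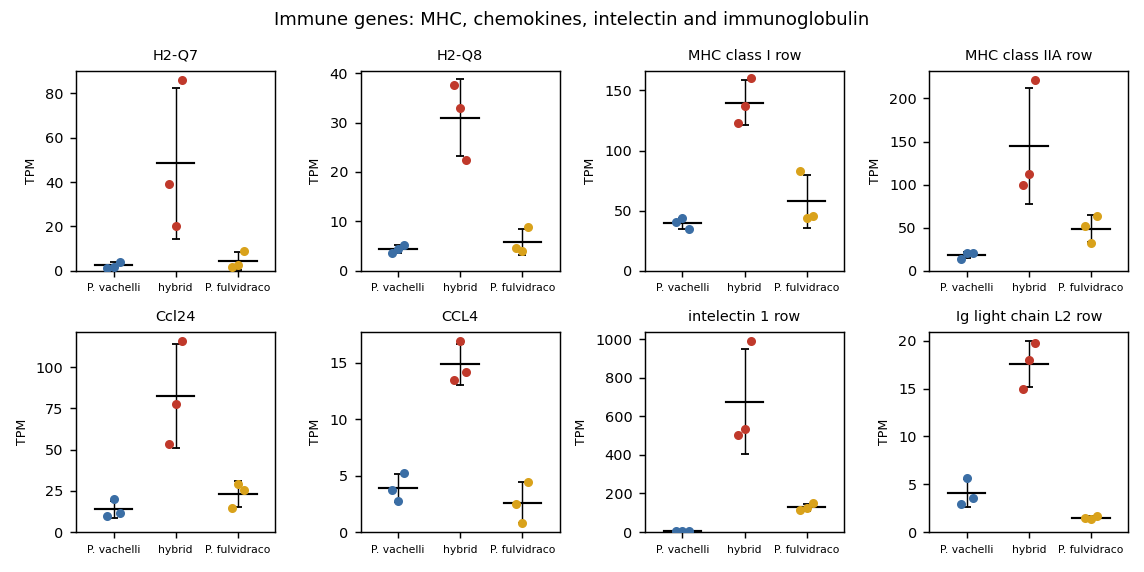
Immune members (TPM, linear axes from 0), as sums of a symbol or as the named row, with 1 point per library, the group mean as a line and the SD as a bar (n = 3). Hybrid points lie above all parental points in every panel, the spread within the hybrid is widest for H2-Q7 and the MHC class IIA row, and the intelectin 1 row is near 0 in P. vachelli alone.

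Muscle-type proteins and myosins gave 6 rows at 5.03 to 144 TPM. MYL3, a cardiac myosin light chain, was at 9.13, 9.36 and 2.55 TPM in hybrids, 2.15, 0 and 0 in P. vachelli and 0 in all P. fulvidraco libraries. tnni3, a troponin I, was at 9.64, 11.3 and 30.9 TPM in hybrids, 3.01, 3.92 and 3.11 in P. vachelli and 8.92, 5.13 and 4.97 in P. fulvidraco, with hybrid 3 well above the others and a ratio of 2.72 that was 1.65 without it. mstnb is a form of myostatin, which limits muscle growth, and averaged 10.2 ± 3.31 TPM in hybrids against 6.36 ± 0.867 in P. vachelli and 1.80 ± 0.547 in P. fulvidraco. Its ratio of 1.6 fell to 1.31 without hybrid 1 and to 1.49 without P. vachelli 3. The others were ro-11, described as a myosin-6-like protein, a myosin-IIIa-like row and a skeletal myosin heavy chain row.

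Transcription factors were few and low. SALL1, a zinc finger factor, kept the rule at 15.9 ± 0.942 TPM and a ratio of 1.66, which was 1.32 without P. fulvidraco 1 and 2. The member rows of KLF11, TEF and Nr1d1 did not survive summing, with ratios of 1.21, 1.13 and 0.957. TEF and Nr1d1 belong to the output and the repressor arm of the circadian clock. None of 14 measured clock genes kept the rule. Of the 12 that were not members, by limma, 2 were higher and 1 lower than in P. vachelli, beside 13.7% and 16.9% of all symbols. Against P. fulvidraco 1 was higher and 0 lower, beside 10.6% and 14.1%. MafA and cut-like 2, both without a symbol, stood at 8.82 ± 4.85 and 5.25 ± 1.80 TPM.

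The other 46 rows spanned many functions, and 23 of them had a symbol that kept the rule. VMO1, a vitelline membrane outer layer protein, was the highest at 295, 228 and 219.6 TPM in hybrids, but its symbol summed to a ratio of 0.952. CLDND1, a claudin-related membrane protein, was at 78.1, 145 and 97.6 TPM in hybrids, 47.5, 69.2 and 44.4 in P. vachelli and 58.05, 60.4 and 45.3 in P. fulvidraco. endou, a uridine-specific endoribonuclease, was at 112, 95.5 and 85.6 TPM in hybrids, 56.1, 27.5 and 31.2 in P. vachelli and 29.4, 48.04 and 61.8 in P. fulvidraco, with the library order of the pancreatic rows. Antxr2, a receptor of basement membrane proteins, averaged 109 ± 5.30 TPM and a ratio of 1.55, which was 1.48 without P. vachelli 1 and 1.49 without P. fulvidraco 2.

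Further members in this group acted in signalling and trafficking. PLCB1, a phospholipase that releases inositol trisphosphate, had 2 member rows with ratios of 3.89 and 3.18 and a sum of 25.6 ± 2.59 TPM, 2.08 times the P. fulvidraco mean. The second row was at 6.09 without P. fulvidraco 3, and the sum was at 1.44, under the threshold, without P. fulvidraco 1 and 2. sema4e, a semaphorin, was 9.21 times the higher parent in its member row and 1.54 times after summing, which fell to 1.43 without P. vachelli 3 and to 1.46 without hybrid 3. RAB26, a vesicle GTPase, was at 12.8, 12.4 and 13.2 TPM in hybrids, 10.4, 6.81 and 8.07 in P. fulvidraco and under 0.2 in P. vachelli. Its ratio of 1.52 was 1.39 without P. fulvidraco 2 and just under 1.5 without hybrid 3 or P. fulvidraco 3. Rabggta, which prenylates Rab proteins, was at 58.5, 40.4 and 45.5 TPM in hybrids, 34.4, 33.4 and 27.3 in P. vachelli and 6.77, 6.72 and 9.45 in P. fulvidraco. Its ratio, also 1.52, was 1.35 without hybrid 1 and 1.42 without P. vachelli 3. GTSF1, known from piRNA silencing in the germ line of mice, averaged 13.7 ± 6.26 TPM and was 2.39 times the P. vachelli mean.

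A group of 21 rows had no informative description, and 2 were of transposable elements. By the description classes, 479 described rows at 5 TPM had an uncharacterized or hypothetical description. Of these 25 were members, or 5.22%, beside 2.06% over all described rows at 5 TPM. The highest was an uncharacterized row at 487, 293 and 662 TPM in hybrids, 149, 280.1 and 284 in P. vachelli and 129, 108 and 87.6 in P. fulvidraco. The row with the symbol paxA, described as an unnamed rainbow trout protein, was at 8.54, 40.2 and 10.98 TPM in hybrids and at 0.01 TPM or less in each parental library. It and 3 more rows, both rhamnose-binding lectins and an uncharacterized one at 10.1, 9.35 and 3.19 TPM, had both parental means under 0.1 TPM. In 15 rows a single parental mean was under 0.1 TPM.

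Some of the description classes gave no member. These were ribosomal proteins with 158 described rows at 5 TPM, RNA processing with 200, ubiquitin and proteasome with 179 and zinc finger proteins with 110. The others were chromatin and histones with 105, the mitochondrial respiratory chain with 103 and cytochromes P450 with 40. The classes follow the wording of a description, not function. SALL1, a zinc finger factor described as a sal-like protein, was thus not counted under zinc finger proteins. Lectins had 3 of 36 rows (8.33%), MHC and immunoglobulin 2 of 33 (6.06%) and chemokines or cytokines 6 of 103 (5.83%). Set beside 2.06% over all described rows at 5 TPM, these shares describe the choice and carry no test.

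The parents were compared with each other by limma, a contrast whose direction the rule did not set. Since the rule bounds both parents by the hybrid, the size of that difference is not free of it. Over all 51225 rows tested, 27.4% were higher in P. vachelli and 26.9% in P. fulvidraco at an adjusted p under 0.05, and over described rows at 5 TPM in hybrids 28.7% and 31.9%. Among the 154 members, all of which were tested, 27 rows (17.5%) were higher in P. vachelli, 25 (16.2%) in P. fulvidraco and 102 passed in neither direction. Of the 62 symbols that kept the rule, 8 were higher in P. vachelli and 11 in P. fulvidraco, where 23.9% and 24.7% of the 10815 symbols were called. Both shares, 12.9% and 17.7%, were below those over all symbols. Of all 88 member symbols, kept or lost, 16 (18.2%) were higher in P. vachelli and 22 (25.0%) in P. fulvidraco. The latter share was near that over all symbols. Differences in shares were not tested.

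Large parental differences among the keeping symbols went in both directions. Sult1d1 was higher in P. fulvidraco by 3.88 ± 0.47 (standard error) on the log2(TPM + 1) scale, with an adjusted p of 1.71e-04 by limma. RAB26, a symbol with a single row, was higher in P. fulvidraco by 3.14 ± 0.15 (adjusted p = 8.04e-07, limma). Both were near 0 in P. vachelli, and a form of that species in a row without the symbol would be missing from the sum. sema4e and Rabggta were higher in P. vachelli by 3.58 ± 0.40 and 1.93 ± 0.17, with adjusted p-values of 9.56e-05 and 2.93e-05 by limma. hpx was higher in P. fulvidraco by 1.44 ± 0.17 (adjusted p = 1.59e-04, limma). For these genes the hybrid was above the parent with the higher level. Other genes with large hybrid ratios had smaller parental differences. The parental log2 difference was 0.45 ± 0.28 for Csad, -0.07 ± 0.26 for GADL1 and -0.51 ± 0.60 for H2-Q7, with adjusted p-values of 0.222, 0.847 and 0.51 by limma, so none of these was called.

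Of the 26 symbols that lost the rule on summing, 24 had overlapping groups and 2, Fmo5 and Ip6k2, fell short in the ratio alone, at 1.48 and 1.42. The highest by row were CELA2A, VMO1, the b2m row, CCL3, A2m and IP6K2. For A2m, a protease inhibitor of plasma, the member row had a ratio of 2.35 and the symbol, summed over all rows written A2M or A2m, averaged 3379 ± 61.4 TPM in hybrids, 1967 ± 232 in P. vachelli and 2895 ± 898 in P. fulvidraco. Its sum had a ratio of 1.17, and P. fulvidraco 1 was above all hybrid libraries. Without that library the ratio was 1.41, still under the threshold. A symbol can join close relatives of a family, so a loss says that the named set of rows was not above both parents, not that the single row was not.

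**Figure D5:**
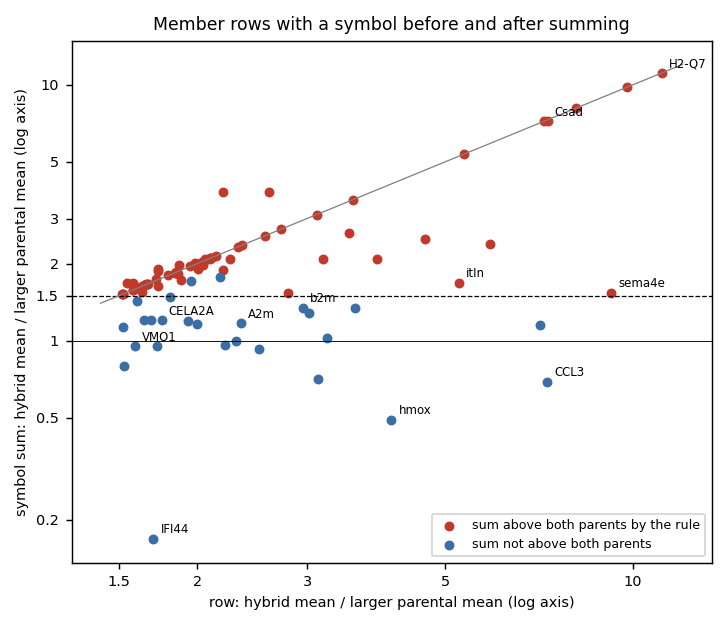
Ratio of hybrid mean to larger parental mean in each member row with a symbol and a ratio under 100, against the same ratio after summing all rows of its symbol (both axes logarithmic). The grey line marks equality, the black line a sum ratio of 1 and the dashed line 1.5. Points on the grey line are symbols with a single row or little else, and those below 1, such as IFI44 at 0.168 and hmox at 0.491, lie below the higher parent once summed. The blue points above the dashed line had overlapping libraries.

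For rows without a symbol the check used the description or the assembly component. Of these 61 rows, 45 met the rule when rows with the same description were summed and 46 when rows of the same component were. Over all 154 members the numbers were 110 and 119. In 7 components there was more than 1 member, 16 rows together, and these may be pieces of the same gene. The description came from the channel catfish Ictalurus punctatus in 111 members (72.1%), beside 77.2% of all described rows.

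Spread between the hybrid libraries is described here without a test. The median coefficient of variation within the hybrid was 22.7% over members and 13.7% over all described rows at 5 TPM, and the highest hybrid library was over 2 times the lowest in 44 members and over 3 times in 18. Hybrid 2 was the highest library in 38.3% of members and in 27.9% of described rows, hybrid 3 in 35.7% and 50.9%, and hybrid 1 in 26.0% and 21.1%. In all, 100 members met the rule without any one library. Since a library left out cannot make separated groups overlap, only the level or the ratio could fail there. Leaving out a hybrid library lost 14, 19 and 21 members for hybrid 1, 2 and 3, and leaving out P. fulvidraco 1 lost 9.

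The thresholds cut through a continuous range. Just inside the ratio of 1.5 were a reverse transcriptase row at 1.51, Rabggta at 1.52 and RAB26 at 1.52, and just outside were sclerostin at 1.496, mzt2 at 1.49 and a myosin-IIIa-like row at 1.48. Just inside the level of 5 TPM were NOD1 at 5.02, a skeletal myosin heavy chain row at 5.03 and a hypothetical protein at 5.12 TPM. Just outside were Ano7 at 4.94, an interleukin-8 row at 4.94 and a von Willebrand factor A domain row at 4.91 TPM. Without any condition on the ratio, 253 of the 7469 rows (3.39%) had all hybrid libraries above all parental ones.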

How the data were processed

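The authors deposited a table of TPM per assembled gene for 9 liver libraries, each summing to 1000000 TPM, with a protein description and a gene symbol per row. Per the submitters' processing notes, cutadapt (adapter trimming) and FastQC (read quality) were used. The identifiers in the deposited table have the form that Trinity, a transcript assembler, gives. Not given in the sources used here are the quantifier, assembly settings and annotation source, and no column of values stayed without a sample (0 columns). The extraction protocol speaks of an adipose type while the tissue label says liver, and the tissue label was followed.

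The rule was applied to TPM as deposited, per row and after summing the rows of a symbol without regard to case (17769 rows, 11137 symbols). Rows and symbols with at least 1 TPM in at least 3 libraries were tested with limma 3.58.1 in R 4.3.3, with an intensity trend on log2(TPM + 1), in 1 fit of 9 libraries by group, two-sided, Benjamini-Hochberg adjusted over all 51225 rows or 10815 symbols at 0.05. Fold changes on this scale understate low genes. Tables were made with Python 3.11.15 and pandas 2.3.3. Tested on simulated parental comparisons, the fit called 24% of rows (45436 in that run) and 70% of symbols (10618) changed by 1 on the log2 scale, and 72% and 94% of those changed by 2. The simulation changed few rows or symbols, all from above the median level, whereas far more were called in the data. These shares therefore do not give the recovery in the data or among low rows. TPM keep no depth, so no counting interval is given.

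The members, gene lists, description classes and tests were chosen with earlier results of these data known, and members were sorted into roles after their values were seen. Named were the 20 keeping symbols highest in the hybrid, the 12 with the largest ratio, up to 4 members per list or class, the rows beside each threshold and the 6 highest rows that lost the rule on summing. Any list gene could be named. Other rows were named after their values were seen, for completeness. Alternatives tried were other levels and ratios, quantile normalization, median-ratio scaling, other pseudocounts and filters, no trend, parents alone, replicate number as a block, libraries left out and, chosen after seeing the data, sums by description and by component. No sequences were used. 1 member symbol that the rule names is not reported here.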

Additional observations from a re-analysis of the deposited data

How the results depend on the processing

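The 154 chosen rows became 381 at a minimum of 1 TPM, 94 at 10 TPM, 94 at a ratio of 2 and 287 over every row of the table, described or not. Chosen anew without any one library, they numbered 161 to 270, most without hybrid 1 (270) and hybrid 2 (245). With a library less to separate, further rows could enter, and of the 154 themselves 133 to 153 met the rule. The 62 keeping symbols became 127 at 1 TPM and 26 at a ratio of 2. With the choice made anew without any one library there were 63 to 101, most without hybrid 1. Of the 88 symbols of the main choice, 55 to 63 met the rule in those settings. The 52 member rows called between the parents were 33 to 54 without any one library, fewest without P. vachelli 2 (33) and P. vachelli 3 (34), and the 38 member symbols 27 to 38. Over all rows 27855 were called, 10618 with a filter of 5 TPM, 16960 without P. fulvidraco 1 and 2 and 22141 to 27960 without any one library. In each case the cause was not tested beyond the smaller number of rows or libraries. Under quantile normalization hpx, fabp1 and apoeb fell to 1.38, 1.46 and 1.43 times the higher parent. Without P. fulvidraco 1 and 2, CPB1, Cpa1, Sycn, hcea and lce were at 1.29, 1.27, 1.33, 1.41 and 1.44.

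With the replicate number as a block, 47 member rows, 32 member symbols and 27204 of all rows were called between the parents. The numbers share no stated origin, and same-numbered parental libraries did not deviate together, with correlations across genes of -0.015, 0.0024 and 0.0072, so no pairing was assumed. No keeping symbol turned below the higher parent under the scalings. With libraries left out none could, since all hybrid libraries were above all parental ones. The TPM hold no read depth, so the precision of rows of a few TPM is unknown.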

Other observations

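Another 133 rows without any description met the other conditions, at 5.02 to 535.6 TPM with a median of 7.99 TPM, and 3 of them were listed at 0 in both parents. The highest stood at 458, 517 and 631 TPM in hybrids, 2.29, 2 and 2.39 in P. vachelli and 0, 0 and 0.54 in P. fulvidraco. The second was at 367, 506 and 495 TPM in hybrids, 0 in all P. vachelli libraries and 11.7, 11.8 and 8.60 in P. fulvidraco. Both were thus abundant in all hybrid libraries and low in all parental ones, and nothing in the table names their product.

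A further 21 symbols met the rule once their rows were summed although none of their rows did so alone. The highest was PLA2G1B, the pancreatic phospholipase A2, at 476, 384 and 339 TPM in hybrids, 279, 139 and 146 in P. vachelli and 102, 225 and 234 in P. fulvidraco. It had the library order of the pancreatic rows, with P. vachelli 1 highest and P. fulvidraco 1 lowest in their groups. Next were Tmc3 at 23.6 ± 1.81 TPM, slc7a2, a carrier of cationic amino acids, at 19.8 ± 0.79 TPM, PDK3, a kinase that restrains pyruvate dehydrogenase, at 16.9 ± 5.43 TPM and PAN2 at 15.6 ± 4.98 TPM in hybrids. Lower ones, named after their values were seen, included e2f8 at 15.2 ± 7.63 TPM, FANCI at 8.67 ± 0.321 TPM and POLE at 5.19 ± 2.55 TPM, with ratios of 2.86, 1.51 and 2.37. FANCI no longer met the rule without hybrid 3 or P. fulvidraco 2, POLE without hybrid 2, slc7a2 without P. fulvidraco 1 and PAN2 without hybrid 3. None of 10 measured genes of the cell cycle list kept the rule. The interferon-induced mx was at 6.08, 7.37 and 7.16 TPM in hybrids, 1.29, 0.6 and 0.32 in P. vachelli and 3.87, 1.24 and 2.93 in P. fulvidraco.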
